A study of Homo sapiens with 4 samples.

Results

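Long non-coding RNAs (lncRNAs) are transcripts that carry no annotated protein. The summits of Star-PAP HITS-CLIP peaks that lay in their exons are described here. A summit counted when it fell on an autosome in an exon of a gene typed lncRNA in GENCODE release 44 on hg19 and in no exon of a protein-coding transcript. MALAT1 and NEAT1 were left out with all bases of their exons. Of the 1031599 summits of the 3 libraries, 12695 met this rule. The control library held 3503 of 411400 summits, the siStar-PAP library 4796 of 325797 and the siRBM10 library 4396 of 294402.

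HITS-CLIP freezes protein and RNA contacts with ultraviolet light (400 mJ/cm2 here), pulls the protein down and sequences the RNA that comes with it. HEK293 cells, an established human embryonic kidney line, gave 4 samples of 1 library each. An anti-Star-PAP antibody was used on cells of the control state, on cells given siRNA against Star-PAP and on cells given siRNA against RBM10, harvested after 48 h, and an IgG pull-down served as the reference for calling peaks and was not analysed here. The labels do not say whether the control cells received a control siRNA, and the lists cannot show how far each protein was depleted. Since every condition was a single library, conditions could not be tested against each other, and each interval below is a 95% interval for counting error only. The lists give the position of a summit and its score, the −log10 of the p-value against IgG, without strand, width or number of tags. A summit therefore cannot be assigned to the lncRNA rather than to an RNA of the other strand, and a stronger contact cannot be told apart from a more abundant RNA.

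Star-PAP is a nuclear enzyme of the non-canonical poly(A) polymerase family. It helps to cleave and polyadenylate chosen pre-mRNAs, and it is also known as the enzyme that adds uridines to U6 small nuclear RNA. RBM10 is an RNA-binding protein best known for splicing and acts with Star-PAP on some of its targets. Most lncRNAs are made by RNA polymerase II, are spliced and carry poly(A) tails as mRNAs do. Many are short-lived, start beside the promoter of a coding gene or run through such a gene on the other strand, and some serve as the precursors of small nucleolar RNAs (snoRNAs) or microRNAs.

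The sequences of the summits with the highest scores among those in lncRNA exons are printed first. They show where the leading members of each library lay, and not which RNA gave them. They are single summits and stand for few of the members. Each runs 5′ to 3′ over 29 nt centred on the summit, on the annotated strand of the lncRNA and from hg19, written as DNA. Capitals mark ATA, the DNA spelling of the AUA trinucleotide described in Star-PAP binding sequences. It was searched on the annotated strand only, with overlapping copies counted, and 29.3% of all 29-nt windows of the lncRNA exons held it. A match describes the letters and is no proof of a binding site. Of the 5 leading control summits 4 are shown.
ENSG00000268836, control, chr16:236142-236170 on the minus strand: cccccgtgtcgctgttccccccgtgtcgc
DIP2C-AS1, control, chr10:714101-714129 on the plus strand: atgtgtattgcATAcacATAATAcatgca
ENSG00000224090, control, chr2:219879820-219879848 on the plus strand: gcgtgcaacacacacctgaggagaatgca
ENSG00000286309, control, chr20:57971814-57971842 on the minus strand: aaATAgacacagagacagagacacagaga

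In the depletion libraries the leading summits fell in other lncRNAs. The summits of the leading pair of lncRNAs and those in or beside an annotated small RNA are shown, with summits of SNHG3 and NORAD, lncRNAs of the lists treated below. The SNHG3 and NORAD windows all hold ATA and do not stand for other lncRNAs. At the highest summits of SNHG29, TERC, H19, MEG3, MIR23AHG and PPM1F-AS1, mostly not shown, no window held it. In SNHG17, OIP5-AS1, KCNQ1OT1 and HELLPAR, also not shown, it was held in some libraries only.
ENSG00000259001, siStar-PAP, chr14:20811486-20811514 on the minus strand: cactcccatgtcccttgggaaggtctgag
ENSG00000259001, siRBM10, chr14:20811450-20811478 on the minus strand: ccagaggcggccctaacagggctctccct
ENSG00000282885, siStar-PAP, chr14:50329418-50329446 on the minus strand: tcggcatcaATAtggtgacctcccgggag
ENSG00000282885, siRBM10, chr14:50329384-50329412 on the minus strand: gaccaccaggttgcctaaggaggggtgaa
ENSG00000285646, siRBM10, chr1:11968134-11968162 on the plus strand: gggccgaaggaaagttaccattacccgtt
SNHG22, siRBM10, chr18:47340621-47340649 on the plus strand: gcgaaatggggccaggggacctggagcag
SNHG3, siStar-PAP, chr1:28833883-28833911 on the plus strand: gtggATAcacccgggaggtcactctcccc
SNHG3, siRBM10, chr1:28833932-28833960 on the plus strand: aggggagcATAgggctctgccccatgatg
NORAD, siStar-PAP, chr20:34635939-34635967 on the minus strand: aagacactatcagATATAaccattgttac
NORAD, siRBM10, chr20:34636063-34636091 on the minus strand: tgaaaaggacttttggaagtgagATAaca

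Among summits in lncRNA exons, the highest scores belonged to ENSG00000259001. This lncRNA starts beside PARP2, a DNA repair gene, on the other strand (divergent, chr14:20811207-20811844). Its summit scored 63.8 in the siStar-PAP library and 77.8 in the siRBM10 library, and its exons held no control summit. The nearest small RNA in the annotation used, SNORD126, lay 16815 bp from the siStar-PAP summit. RefSeq's gene list on GRCh38.p14 places RPPH1, the RNA of ribonuclease P, between SNORD126 and PARP2, whereas no RPPH1 gene was found in the annotation used. In that list RPPH1 is 341 nt long, with its ends 224 and 564 bp from PARP2. Relative to the PARP2 start on hg19, with negative values upstream, the siStar-PAP summit stood at -294 bp. The siRBM10 summit stood at -330 bp. Both positions fall within the span of RPPH1 if hg19 keeps that spacing. Which RNA gave these tags was not tested.

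The next highest scores among the members of both depletion libraries stood in ENSG00000282885 (chr14:50327894-50334910), at 17.6 with siStar-PAP and 24.6 with siRBM10. Both summits lay inside RN7SL2, a gene for the RNA of the signal recognition particle, which guides nascent proteins to the endoplasmic reticulum. In ENSG00000285646 the summits were at the same base in both depletion libraries, with scores of 7.42 and 10.3, 61 bp from RNU5E-1, a gene for U5 RNA of the spliceosome. SNHG22, whose exon holds the small Cajal body RNA gene SCARNA17, had summits inside it with scores of 6.54 and 9.74.

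Summits inside annotated small RNAs were few in number but, after depletion, many for the 0.0264 Mb of exon that these RNAs cover. They numbered 1 in the control, or 0.271 times the number expected from the chromosomes (0.00687 to 1.51), 9 in siStar-PAP, or 2.66 times (1.21 to 5.04), and 10 in siRBM10, or 3.32 times (1.59 to 6.11). No number expected at the same GC content was computed for these exon bases. Some of the small RNAs carry pseudogene names, such as RNU6-951P and RN7SL484P in siStar-PAP and RNU1-122P in siRBM10. SNHG10 had a summit inside SCARNA13 in each depletion library, with scores of 3.75 and 2.62. ENSG00000214248 had one at the same base of RN7SL115P, also a pseudogene name, with scores of 1.77 and 2.10. In SNHG17 the siRBM10 summits fell in SNORA71A and in SNORA71D. The control summit lay in UBA6-DT, within a copy of SNORA62, with a score of 1.33.

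The leading control summits lay in other lncRNAs. Those ranked 1 and 2 scored below their counterparts in both depletion libraries, and those ranked 3 to 5 scored above them. ENSG00000268836 led with 14.9, followed by LINC01608 with 14.6, DIP2C-AS1 with 13.4, ENSG00000224090 with 12.2 and ENSG00000286309 with 9.87. The window of 200 nt around the ENSG00000268836 summit repeated itself every 17 nt, with 100% of the bases equal at that lag, and it had depletion summits within 500 bp with scores of 1.87 and 2.18. Windows with at least 80% equal bases at some lag of up to 60 nt made up 0.117% of exon positions taken every 1000 bases. They made up 2 of the 36 control summits with a score of 5 or more, or 5.56% (Wilson interval 1.54 to 18.1), and 0 of 45 and 0 of 203 such summits of the siStar-PAP and siRBM10 libraries. Under a score of 2 the order was the reverse, with 0.0453%, 0.375% and 0.454%. Over all members the shares were 0.257% (0.135 to 0.488), 0.125% (0.0573 to 0.273) and 0.136% (0.0626 to 0.297), with overlapping intervals.

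Outside these few places, the summits were thin. GENCODE lists 18227 lncRNA genes on the autosomes besides MALAT1 and NEAT1, of which 17826 keep exon bases outside coding transcripts, 33.3 Mb in all with a median of 0.992 kb per gene. Of these genes 2617 held a summit in the control, 3603 in the siStar-PAP and 3389 in the siRBM10 library, and 2072, 2835 and 2688 of them held exactly 1. At least 3 summits were found in 176, 252 and 204 genes. The median score was 1.33, 2.49 and 2.77, and 58.9% of the control summits shared the commonest score of 1.33.

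LncRNA exons held fewer summits than their length gives in the control library and slightly more in the depletion libraries. They took 0.915% of the autosomal control summits (Wilson interval 0.885 to 0.945), 1.57% of those of siStar-PAP (1.52 to 1.61) and 1.59% of those of siRBM10 (1.55 to 1.64). This was 105, 144 and 132 summits per Mb of exon, where the autosomes as a whole had 143, 114 and 103. Against the number given by the summits per base of each chromosome, the observed number was 0.751 times as large in the control (exact Poisson interval 0.727 to 0.777), 1.18 times in siStar-PAP (1.15 to 1.21) and 1.20 times in siRBM10 (1.17 to 1.24).

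As a share of all summits, lncRNA exons thus rose 1.71 times from control to siStar-PAP (exact interval of a ratio of counts 1.64 to 1.79) and 1.74 times from control to siRBM10 (1.66 to 1.82). The number itself rose 1.37 and 1.25 times while all autosomal summits went to 0.800 and 0.721 times. Exons of protein-coding transcripts went the same way by more, with their share 2.89 and 2.92 times that of the control. Introns of lncRNA genes went the other way, from 1.06 times the chromosome rate in the control to 0.787 and 0.824. Between the depletion libraries the share in lncRNA exons hardly differed, with a ratio of siRBM10 to siStar-PAP of 1.02 (0.976 to 1.06).

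The GC content of the exons moved with this difference. Per Mb of lncRNA exon, windows of 200 nt with under 36% GC had 113 control summits, 48.1 of siStar-PAP and 34.4 of siRBM10. Windows with 54% GC or more had 92.3, 310 and 221. Over all autosomal bases the same windows had 153, 45.8 and 28.2 at the low end and 142, 334 and 225 at the high end. The depletion lists as a whole leaned to GC-rich bases, and the lncRNA exons lay close to that line.

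**Figure D1:**
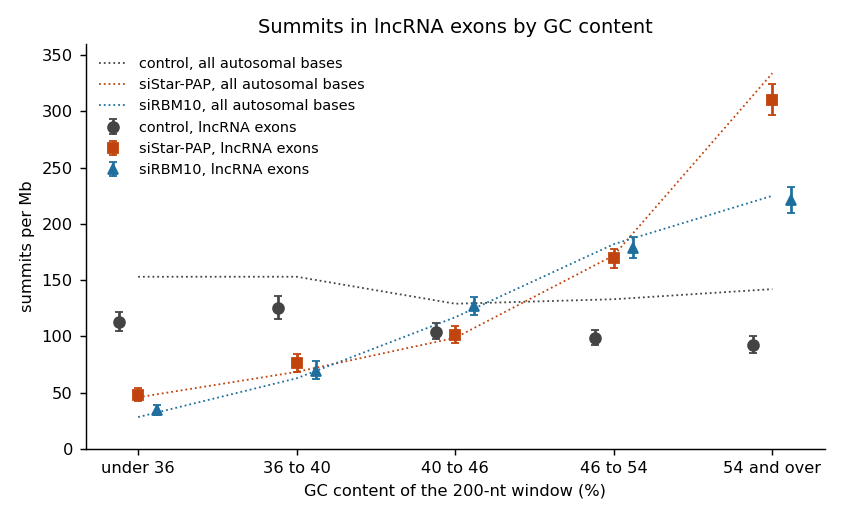
Summits per Mb in lncRNA exons (points, with exact Poisson intervals) and over all autosomal bases (dotted lines) in windows of 200 nt grouped by GC content, for the 3 libraries. Control summits in lncRNA exons fall from 113 to 92.3 per Mb between the lowest and highest groups, while siStar-PAP summits rise from 48.1 to 310 and siRBM10 summits from 34.4 to 221.

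When the expected number was taken from all autosomal bases of the same GC content, the excess in the depletion libraries was gone. The observed number was then 0.758 times the expected in the control, 0.970 in siStar-PAP and 1.02 in siRBM10. Exons of protein-coding transcripts kept an excess on that scale, at 1.33 (1.32 to 1.35) and 1.53 (1.51 to 1.55), with 0.764 in the control. The shortfall in the control was thus of like size in lncRNA and coding exons, whereas an excess in both depletion libraries was found on this scale for coding exons and not for all lncRNA exons pooled. The part of GC content in library preparation, mapping or binding was not tested.

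Over all members the letters at the summits also differed. In 20 nt around the summit the mean GC content was 44.6% in the control (44.1 to 45.1), where positions over the same exons had 44.9%. It was 51.4% in siStar-PAP and 50.2% in siRBM10, where the same exons had 45.7% and 45.6%. ATA stood in 30.6% of the 29-nt control windows (29.1 to 32.1), beside 29.8% of windows of the same exons. In siStar-PAP it stood in 20.3% (19.2 to 21.5) and in siRBM10 in 20.2%, beside 28.5% and 28.6%. The poly(A) signal AATAAA was held by 2.07%, 1.45% and 1.49% of the windows, and by 2.33% of all exon windows. Among the 10% of summits with the highest scores the split between control and depletion did not hold. Their GC content was 51.8% in the control, 54.9% in siStar-PAP and 48.0% in siRBM10, and ATA stood in 20.3%, 16.0% and 22.8% of their windows.

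By their place relative to coding genes, lncRNAs were called divergent when they started on the other strand within 1000 bp of a coding gene's start, antisense when they overlapped only coding genes of the other strand, sense when they overlapped a coding gene of the same strand, and intergenic otherwise. Intergenic lncRNAs, 8783 genes with 50.4% of the exon bases, held 53.0% of the control summits (1857), 45.4% of those of siStar-PAP (2177) and 46.7% of those of siRBM10 (2053). Antisense lncRNAs, 5193 genes with 25.2% of the bases, held 24.0% (840), 28.9% (1388) and 27.7% (1218). Divergent lncRNAs, 2366 genes with 16.3% of the bases, held 15.0% (527), 16.8% (807) and 16.7% (734). Sense lncRNAs, 1885 genes with 8.06% of the bases, held 7.96%, 8.84% and 8.89%.

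Every class was below the chromosome rate in the control and above it after either depletion. The share of summits rose 2.07 times in antisense, 1.91 times in divergent, 1.90 times in sense and 1.47 times in intergenic lncRNAs (1.38 to 1.56) from control to siStar-PAP. From control to siRBM10 it rose 2.01, 1.93, 1.94 and 1.53 times (1.44 to 1.63). The intervals of the intergenic class did not reach the other values. At the same GC content, intergenic exons stood at 0.888 times the expected number in siStar-PAP (0.851 to 0.926) and 0.952 in siRBM10 (0.912 to 0.995), and antisense exons at 1.07 (1.02 to 1.13) and 1.08 (1.02 to 1.15).

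**Figure D2:**
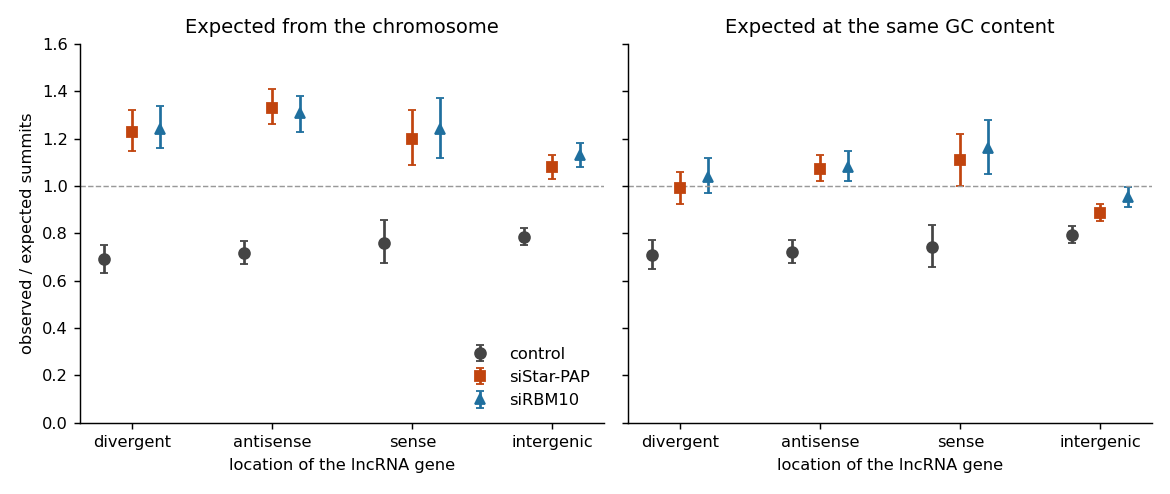
Observed over expected summits in exons of divergent, antisense, sense and intergenic lncRNAs for the 3 libraries, with exact Poisson intervals, the expected number coming from the chromosome (left) or from autosomal bases of the same GC content (right). Control values lie between 0.691 and 0.794 in both panels, and the depletion values between 1.08 and 1.33 on the left come down to between 0.888 and 1.16 on the right.

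Counted by the summit rather than the gene, 75.6% of the control summits lay outside any coding gene, against 68.7% in siStar-PAP and 70.9% in siRBM10. Those in an intron of a coding gene of the other strand made up 18.7% in the control, 24.2% in siStar-PAP (23.1 to 25.5) and 22.4% in siRBM10. These summits could equally come from the coding pre-mRNA, and the lists cannot tell the strands apart. LncRNA exons inside coding genes held 0.721 times the summits expected at their GC content in the control, 1.12 times in siStar-PAP and 1.11 times in siRBM10. Those outside held 0.771, 0.914 and 0.984 times.

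Chromosomes differed widely. Exons on chromosome 19 had 86.5 control summits per Mb, 267 of siStar-PAP and 261 of siRBM10, and those on chromosome 17 had 73.8, 246 and 214. On chromosome 13 the order turned, with 147, 74.3 and 80.6 per Mb, and likewise on chromosome 4 with 112, 76.1 and 77.3. The lists as a whole moved the same way, from 5619 control summits on chromosome 19 to 16265 of siStar-PAP and 13695 of siRBM10, and from 16102 on chromosome 13 to 6121 and 5377. The differences between chromosomes are therefore not particular to lncRNA exons. The siStar-PAP library had more summits in lncRNA exons than the control on 18 of 22 chromosomes and the siRBM10 library on 17.

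**Figure D3:**
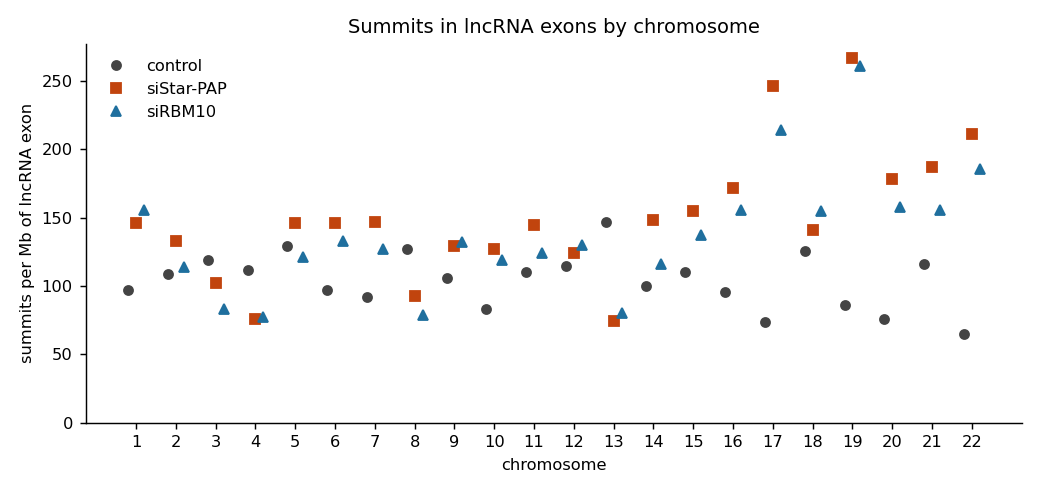
Summits per Mb of lncRNA exon on each autosome in the 3 libraries, as points without error bars. The depletion libraries stand above the control by the most on chromosomes 17, 19 and 22 and below it on chromosomes 3, 4, 8 and 13.

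The lncRNAs with the most summits were long ones. HELLPAR, a single-exon RNA of 198070 effective bp known from a pregnancy disorder, held 43 control summits (exact Poisson interval 31.1 to 57.9), 25 of siStar-PAP (16.2 to 36.9) and 12 of siRBM10 (6.20 to 21.0). Its length and chromosome gave 28.1, 22.6 and 20.5. It was thus above that number in the control, while the intervals of the depletion libraries held theirs. SNHG14, the host of the snoRNA clusters of the Prader-Willi region, held 22, 10 and 8, beside 18.2, 16.2 and 14.2 expected. MIR99AHG, the host of miR-99a and let-7c, held 16, 5 and 3, beside 8.43, 8.20 and 7.81.

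KCNQ1OT1, an imprinted antisense RNA that silences its neighbours in cis, held 14 control summits, 19 of siStar-PAP and 13 of siRBM10, beside 13.2, 9.77 and 8.65 expected. Their places along the gene differed. The control summits lay 36.2 to 91.1 kb from its 5′ end with a median of 75.0 kb, the siStar-PAP summits 0.255 to 83.6 kb with a median of 30.3 kb, and the siRBM10 summits 7.36 to 85.9 kb with a median of 29.3 kb. No control summit fell nearer the 5′ end than 36.2 kb of a gene of 103 kb.

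Of the 25 lncRNAs with the most summits over the 3 libraries, 9 had most in the control and 11 had fewest there. The median GC content of their exons was 40.2% in the former and 46.5% in the latter. PPM1F-AS1 held 0 control summits, 7 of siStar-PAP and 12 of siRBM10, in exons of 54.9% GC. MIR23AHG, the host of the miR-23a, miR-27a and miR-24 cluster, held 0, 9 and 6 at 57.3% GC, and ENSG00000242588 held 0, 10 and 5 at 53.0%. A count of 0 has an exact upper bound of 3.69 summits. HULC, as annotated here, is a locus of 127 transcripts and 50369 effective bp at chr6:8435801-9294366. It held 11, 4 and 5 at 39.9% GC, and these summits need not lie in the RNA known from liver cancer. MIR99AHG had 36.3% GC.

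**Figure D4:**
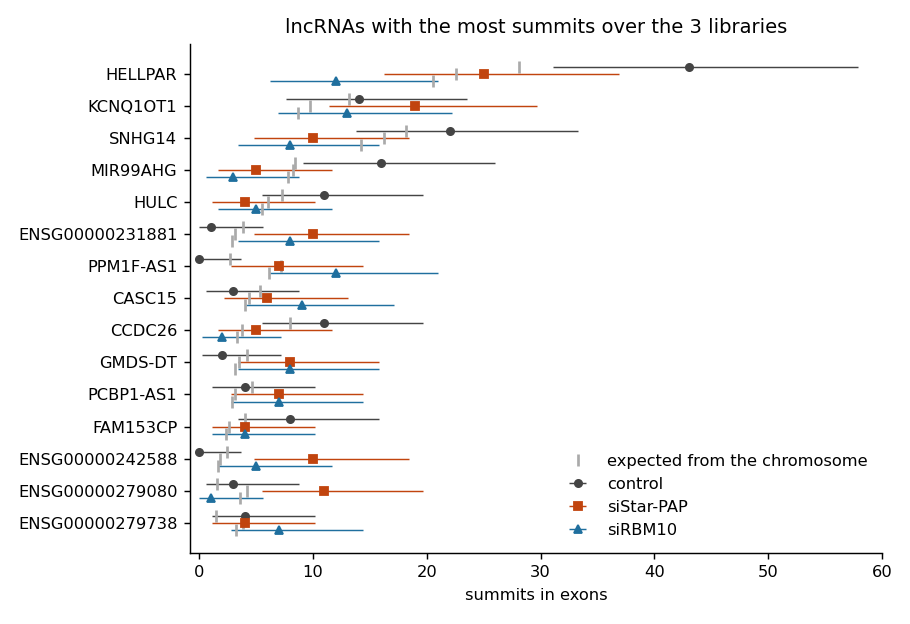
Summits in exons of the 15 lncRNAs with the most summits over the 3 libraries, as points with exact Poisson intervals, with grey ticks for the number expected from effective length and chromosome. HELLPAR, SNHG14, MIR99AHG and HULC had most summits in the control, and PPM1F-AS1 and ENSG00000242588 had none there.

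Per kb of effective exon, the lists were led by short lncRNAs with few summits. Among genes with at least 3 summits and 500 bp, ENSG00000253924 led in the control with 4 summits in 3038 bp, or 1.32 per kb (exact Poisson interval 0.359 to 3.37). LINC02999 led in siStar-PAP with 3 in 1068 bp, or 2.81 per kb (0.579 to 8.21), and ENSG00000269091 led in siRBM10 with 3 in 1624 bp, or 1.85 per kb (0.381 to 5.40). The 10 leading genes spanned 0.815 to 1.32 per kb in the control, 1.25 to 2.81 in siStar-PAP and 1.45 to 1.85 in siRBM10. Each of these genes held 3 or 4 summits, so their intervals overlapped and their order is not resolved.

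No gene stood among the 10 leading genes of more than 1 library. Of the control's 10, 8 were intergenic and 2 antisense, ENSG00000291168, ENSG00000287026, LINC01964, LINC01333 and LINC01687 among the former, and their exons had a median GC content of 40.2%. The siStar-PAP list held 4 divergent, 3 antisense and 3 intergenic genes, among them EXOC3-AS1, CCDC183-AS1, MRPL20-AS1 and HOXA11-AS, an antisense RNA of the HOXA cluster, at a median of 55.8% GC. The siRBM10 list held 5 antisense, 4 intergenic and 1 divergent gene, TFIP11-DT, with NAPSB and LINC01107 among the others, at a median of 53.8% GC. LINC01554, intergenic and on the siStar-PAP list, held 0, 3 and 3.

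When at least 5 summits were asked for, the leading genes were longer. In the control ENSG00000260850 led with 5 summits or 0.651 per kb (0.211 to 1.52), followed by UBA6-DT with 8 or 0.587 per kb (0.253 to 1.16). In siStar-PAP HLCS-AS1 led with 5 or 1.17 per kb (0.381 to 2.74). In siRBM10 DNAH17-AS1 led with 5 or 0.817 per kb and MMP25-AS1 followed with 5 or 0.816, and both held 5 in siStar-PAP too, with 0 and 1 in the control. SNHG29 followed with 6 summits in siRBM10, 4 in siStar-PAP and 1 in the control.

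Between libraries, most lncRNA genes with a summit in a library had none in the next. Of the 2617 genes with a control summit, 1750 (66.9%) held none in siStar-PAP, where 47.7% of all autosomal genes with a control summit did, and 1758 (67.2%) held none in siRBM10, where 49.6% did. In the other direction 2736 of the 3603 siStar-PAP genes (75.9%, beside 65.9%) and 2530 of the 3389 siRBM10 genes (74.7%, beside 65.5%) held no control summit. The depletion libraries also differed from each other. Of the siStar-PAP genes 2258 (62.7%, beside 42.1%) held none in siRBM10, and of the siRBM10 genes 2044 (60.3%, beside 39.1%) held none in siStar-PAP. Exon length moved with these shares, since genes that held a control summit and none of siStar-PAP had a median of 2.23 kb and those with both had 4.84 kb.

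Among lncRNA genes with at least 5 summits over both libraries, 55 of 160 had a rate at least 2-fold higher in siStar-PAP than in the control, with 0.5 added to each count and per autosomal summits. This was 34.4%, beside 59.2% of all genes. A rate at least 2-fold lower was found in 32, or 20%, beside 6.96%. With siRBM10, 45 of 140 were higher (32.1%, beside 55.6%) and 27 lower (19.3%, beside 8.57%). Between siRBM10 and siStar-PAP, 19 of 191 were higher (9.95%, beside 8.97%) and 26 lower (13.6%, beside 11.3%). The control stood at 0 in 13 of the 55 and 9 of the 45 that were higher, and the depletion library stood at 0 in 8 of the 32 and 7 of the 27 that were lower. Falls after depletion were thus more frequent, and rises less frequent, among lncRNAs than among all genes, while the depletion libraries differed from each other about as all genes did.

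At the ends of its range, the GC content of the exons parted the genes that rose from those that fell. Of the 39 genes with under 40% GC, 0 were higher and 20 lower in siStar-PAP, and of the 64 with 46% or more, 41 were higher and 0 lower. With siRBM10, 1 of 39 was higher and 15 lower at the low end, and 27 of 44 were higher and 2 lower at the high end. From 40% to under 46% GC the genes were not parted. Of 57 such genes 14 were higher and 12 lower in siStar-PAP, and of 57 in siRBM10 17 were higher and 10 lower. The differences of single lncRNAs from the control and the GC content of the lists cannot be told apart.

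The genes with the largest differences followed this pattern. DUBR, an RNA known from muscle differentiation, held 6 control summits in 3 of its 13 exons, with scores of 1.33 to 2.28, and 0 in each depletion library, and LINC02822 held 6, 0 and 0. UBA6-DT held 8, 1 and 0, RNF217-AS1 held 6, 2 and 0, and ARRDC3-AS1 held 5, 0 and 1. Their exons had 35.6% to 40% GC. Among those higher after depletion, besides PPM1F-AS1, MIR23AHG and ENSG00000242588, ENSG00000267287 held 0, 6 and 3, LINC01588 held 0, 6 and 2, DGCR5 of the DiGeorge syndrome region held 0, 3 and 5, and DNAH17-AS1 held 0, 5 and 5. LINC02693 stood apart, with 0 control, 1 siStar-PAP and 8 siRBM10 summits.

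Where the depletion libraries differed from each other, CKMT2-AS1 held 3 control, 0 siStar-PAP and 5 siRBM10 summits, DIRC3-AS1 held 3, 0 and 5, and TRAM2-AS1 held 0, 0 and 5. In the other direction ENSG00000279080 held 3, 11 and 1, ENSG00000290993 held 0, 5 and 1, and HLCS-AS1 held 1, 5 and 1. CDKN2B-AS1, also called ANRIL, which lies at a locus of tumour suppressor genes, held 5, 5 and 1.

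At the level of single summits the libraries shared little. Of the control summits in lncRNA exons 87.4% had no siStar-PAP summit within 500 bp (Wilson interval 86.2 to 88.4), where 89.3% of all autosomal and 81.0% of coding exon summits had none. For siRBM10 the share was 88.8%, beside 91.2% and 84.8%. The depletion libraries shared more with each other than with the control, as they did over all autosomal summits. No siStar-PAP neighbour was found for 79.1% of the siRBM10 summits (81.8% of all autosomal ones) and no siRBM10 neighbour for 81.5% of the siStar-PAP summits (83.6%). No control neighbour was found for 90.9% of the siRBM10 summits (87.7%) and 90.3% of the siStar-PAP summits (86.4%).

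Summits with higher scores more often had a neighbour across control and depletion. A siStar-PAP neighbour was found for 7.84% of those scoring under 2 (6.79 to 9.03), 17.1% from 2 to 3, 28.2% from 3 to 5 and 47.2% of the 36 scoring 5 or more (32.0 to 63.0). For siRBM10 neighbours the shares were 8.83%, 14.6%, 15.3% and 30.6%. From the lowest to the highest scores, control neighbours were found for 2.57%, 6.84%, 13.9% and 20.2% of the siRBM10 summits and for 3.93%, 11.5%, 9.66% and 17.8% of the siStar-PAP summits. Between the depletion libraries this order was not seen. The siRBM10 summits had siStar-PAP neighbours in 28.6%, 22.7%, 15.2% and 18.2% of cases, and the siStar-PAP summits had siRBM10 neighbours in 21.8%, 16.2%, 23.1% and 42.2%.

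**Figure D5:**
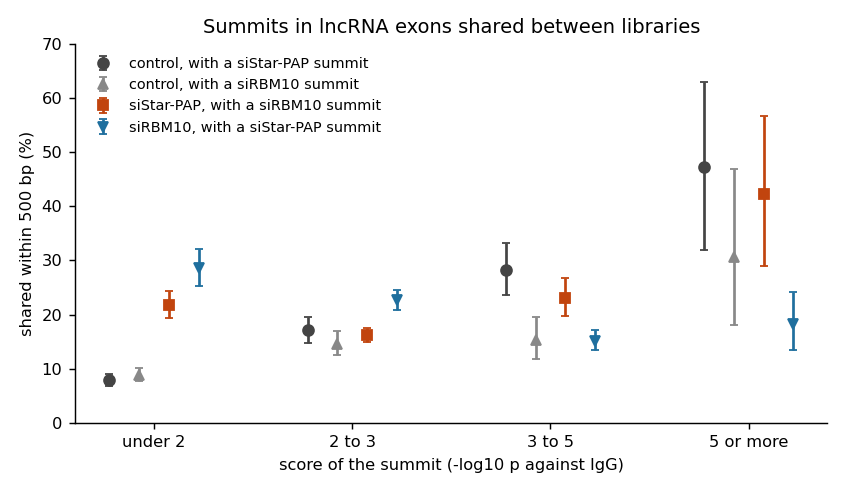
Share of summits in lncRNA exons with a summit of another library within 500 bp, by score, with Wilson intervals. Control summits with a siStar-PAP neighbour rise from 7.84% to 47.2% with the score, and siRBM10 summits with a siStar-PAP neighbour go from 28.6% to 18.2%.

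All 3 libraries had a summit within 500 bp at 79 control summits, or 2.26% (1.81 to 2.80), where 1.58% of all autosomal and 4.84% of coding exon control summits did. At 47 of the 79 all 3 summits themselves lay in lncRNA exons, and at 7 a depletion summit lay in a coding exon. ENSG00000287872 (chr15:82405725-82411911) had scores of 6.47, 4.28 and 2.77 in the control, siStar-PAP and siRBM10 libraries. LINC02076 had 5.35, 2.90 and 4.48, ENSG00000291079 had 4.53, 4.42 and 3.25, and ENSG00000269688 had 3.42, 5.74 and 4.48. The ENSG00000269688 summits lay inside HNRNPL, a coding gene of the same strand, and could equally come from its pre-mRNA. ENSG00000259203 had control and siRBM10 summits 3 bp apart, with scores of 2.64 and 2.87.

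At other shared sites the depletion summits lay in an exon of a coding gene. In EGFR-AS1, antisense to the epidermal growth factor receptor gene, the control summit scored 3.43, and the depletion summits of 8.82 and 9.83 lay in an EGFR exon. At RORA-AS1 the depletion summits lay in an exon of ICE2.

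In the list of snoRNA hosts, lncRNAs with introns that carry guides of ribosomal RNA modification, more members held a summit after depletion. Whether each listed gene hosts a snoRNA was not checked. Among the less certain members, CYTOR and TMEM161B-DT gave 7 and 5 of the 39 control summits. Of the 18 listed, 7 held a control summit, 14 a siStar-PAP and 16 a siRBM10 summit, and 7 held none in the control and some in both depletion libraries. The summits numbered 39, 43 and 44, and 1.02 (0.727 to 1.40), 1.29 (0.934 to 1.74) and 1.48 (1.08 to 1.99) times the number expected from the chromosomes. All lncRNA genes held a summit in 14.7%, 20.2% and 19% of cases, but the hosts' exons were longer, with a median of 4.60 kb, and SNHG14 alone gave 22 of the 39 control summits. The median GC content of the hosts' exons was 46.1%.

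SNHG17 held 0 control, 5 siStar-PAP and 4 siRBM10 summits, SNHG3 held 0, 3 and 1 and SNHG15 held 0, 3 and 2. In SNHG3 the strongest summits of both depletion libraries, of 6.30 and 7.17, lay in the same exon. SNHG29 held 1, 4 and 6 summits. ZFAS1, a host that is also a cytoplasmic RNA of its own, held 1, 2 and 4. GAS5, known from growth arrest, held 2, 0 and 2, and CYTOR held 7, 2 and 2. SNHG32 held none in any library.

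Of the 14 microRNA hosts listed, 8 held a control, 12 a siStar-PAP and 10 a siRBM10 summit. The summits numbered 39, 29 and 25, at 1.21 times the expected number in the control (0.859 to 1.65) and 1.07 times in siRBM10 (0.694 to 1.58), and the siStar-PAP interval of 0.763 to 1.64 spanned 1 as these did. MIR17HG, the host of the oncogenic miR-17 to miR-92a cluster, held 3, 1 and 1. MIR100HG held 7, 3 and 4, and MIR34AHG, the host of a p53-induced microRNA, held 0, 1 and 3. MIR205HG and MIR302CHG held none. The median GC content of the exons was 41.6%.

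Imprinted and chromatin-associated lncRNAs with exon bases numbered 14, of which 5 held a control summit and 12 each a siStar-PAP and a siRBM10 summit. The summits numbered 33, 47 and 30, at 0.937 (0.645 to 1.32), 1.74 (1.28 to 2.31) and 1.25 (0.840 to 1.78) times the expected number. KCNQ1OT1 gave 14, 19 and 13 of them. MEG3, a maternally expressed RNA, held 0, 5 and 2, whereas MEG8 of the same cluster held 6, 1 and 3. H19, a maternally expressed precursor of miR-675, held 3 siStar-PAP summits and none in the other libraries. HOTAIR, an RNA of the HOXC cluster, held 2 siRBM10 summits and no others, and HOXA-AS2 held 0, 3 and 2. LINC-PINT, a p53-induced RNA, held 7, 5 and 1. The median GC content of the exons was 49.7%.

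Of the 20 nuclear and cytoplasmic regulators with exon bases, 10 held a control, 14 a siStar-PAP and 12 a siRBM10 summit, and 5 held none anywhere. The summits numbered 29, 46 and 37, at 0.761 (0.510 to 1.09), 1.23 (0.898 to 1.64) and 1.10 (0.776 to 1.52) times the expected number. NORAD, an abundant cytoplasmic RNA that binds Pumilio proteins, held 0, 4 and 1, with its strongest siStar-PAP and siRBM10 summits at 4.30 and 4.81. MIAT held 1, 6 and 2, OIP5-AS1, which binds miR-7, held 3, 6 and 4, and LINC00511 held 2, 6 and 5. TERC, the RNA template of telomerase, held a summit in each depletion library, with scores of 2.55 and 3.09, and none in the control. SOX2-OT held 5, 3 and 2 and RMST 3, 1 and 0.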

How the data were processed

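The authors cross-linked HEK293 cells and pulled down Star-PAP. Reads were trimmed, identical reads were collapsed, and unique alignments to hg19 were kept. MACS2 then called the peaks of each library with the IgG library as reference. Per the labels' processing notes the tools were FastQC 0.72, cutadapt 1.14, BWA 0.7.12 and MACS2. The deposited lists give 1 summit of 1 bp per peak and the −log10 of its p-value. Read depth is not given in the lists. All 22 autosomes of the reference had the length of hg19.

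Summits were placed on GENCODE release 44 without regard to strand. Members, gene lists and named genes were chosen with earlier results of these data known. Named genes were the 10 with most summits per kb in each library (at least 3 summits and 500 bp), the 5 largest rises and falls per comparison, the 5 highest scores per library, the 10 sites shared by all 3 libraries with the highest lowest score, and 4 lists. TUG1 and BCYRN1 are not typed lncRNA in this annotation, IPW, LINC01578 and LINC00657 have no entry of that name, and THRIL keeps no exon base outside coding transcripts. Further genes, the 25 with most summits and those in small RNAs, were named after their values were seen. Shares carry Wilson intervals, counts exact Poisson intervals and ratios exact conditional intervals at 95%. No p-value was computed. Alternatives varied the score threshold, the location order and distances, the summit minimum, the annotation kept and the expected number. The 11 steps checked on simulated data recovered known answers. The expected number at the same GC content, the letters at the summits and the repeats were not among them. Python 3.11.15, numpy 2.4.6, pandas 2.3.3 and scipy 1.17.1 were used.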

Additional observations from a re-analysis of the deposited data

How the results depend on the processing

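No paired analysis was possible because each condition is 1 library and no result comes from a test, and leaving out a replicate was not possible for the same reason. The main limits are the single libraries, the missing strand and tag numbers, and the low scores of most summits. Depth is unknown, so a missing summit is not shown to be absent. Restricting to GENCODE level 1 or 2 removed no gene and so tests nothing. Windows of 100 nt, merged summits and the exclusion of every exon of coding genes moved no main result beyond its interval. Of the values for single genes, 1950 stayed within it and 195 moved. The causes of the changes below were not tested, except that stricter thresholds leave fewer summits.

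With the expected number taken at the same GC content, chosen after seeing the data, siStar-PAP turned from 1.18 to 0.970 times and siRBM10 moved from 1.20 to 1.02. Without small RNA genes and pseudogenes, also chosen after seeing the data, the shares were 1.52% in siStar-PAP and 1.54% in siRBM10.

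At p at most 0.01 the control kept 1295 summits. The shares were 1.01%, 1.45% and 1.5%, the densities 0.798, 1.10 and 1.15, and the ratios to the control 1.44 for siStar-PAP and 1.49 for siRBM10. Intergenic lncRNAs took 50.4% in the control and 46.9% in siStar-PAP, and antisense lncRNAs 25.7% in the control. Genes with a control summit and none in siStar-PAP or siRBM10 numbered 729 and 737, and 81.7% and 85.9% of the control summits had no neighbour. Higher and lower genes numbered 12 and 8 for siStar-PAP, 14 and 6 for siRBM10, and 16 were lower in siRBM10 than in siStar-PAP. Of the leading genes per kb 1, 3 and 1 stayed.

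With the same number of top summits the shares were 0.95% in the control and 1.49% in siStar-PAP, the siStar-PAP density 1.13 and its ratio 1.57, and the ratio of siRBM10 to siStar-PAP 1.07. With the bodies of coding genes excluded the shares were 0.691%, 1.08% and 1.13%, the depletion densities 1.11 and 1.17 and the ratios 1.56 and 1.63.

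With antisense placed before divergent, antisense took 33.5%, 38.7% and 36.9% and divergent 5.57%, 7.09% and 7.55%. With divergent starts within 5000 bp, divergent took 20.4%, 23.9% and 24.0%, antisense 20.1%, 23.6% and 22.2%, and intergenic 43.9% in siStar-PAP.

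With a minimum of 10 summits 5 genes were higher and 2 lower in siStar-PAP, 5 and 4 in siRBM10, and 1 and 1 between them. With a minimum of 3 they were 295 and 85, 257 and 72, and 100 and 133. Among leading genes per kb, a minimum of 5 summits kept 0, 0 and 0, and a minimum of 2 kept 0, 3 and 0.

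Within 100 bp 96.6% and 97.5% of the control summits had no siStar-PAP or siRBM10 neighbour, and within 1000 bp 79.0% and 79.6%. GC content in the top 10% by score was 51.8%, 54.9% and 48.0%. On the longest transcript the leading stretch held 19.9%, 22.2% and 22.3%, beside 19.8% of the exon bases of those transcripts. The closing stretch held 16.9% in siStar-PAP, beside 20.3% of those bases.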

Other observations

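Grouped by their names, lncRNAs were set against the number expected from the chromosomes. No value at the same GC content was computed for these groups. Those called antisense (ending in AS and a number, 1776 genes) held 0.676 times the expected control summits (exact Poisson interval 0.615 to 0.742). They held 1.31 times those of siStar-PAP (1.22 to 1.41) and 1.36 times those of siRBM10 (1.26 to 1.47). The 580 divergent transcripts ending in DT stood at 0.715, 1.31 and 1.26, and the 2206 LINC genes at 0.818 (0.759 to 0.880), 1.10 (1.02 to 1.18) and 1.17 (1.08 to 1.25). The 28 SNHG genes stood at 0.850 (0.565 to 1.23), 1.63 (1.21 to 2.14) and 1.23 (0.849 to 1.71). The 12727 genes with an identifier only, most of them little studied, stood at 0.743, 1.16 and 1.19, so the pattern of the named genes was also that of the unnamed.

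Along the transcripts, control summits followed the exon bases, and the summits of the depletion libraries leaned to the 5′ end. From the 5′ end to the 3′ end in 5 equal stretches, the leading stretch held 17.8% of the control summits (16.6 to 19.1), 20.7% of those of siStar-PAP (19.6 to 21.9) and 20.9% of those of siRBM10 (19.7 to 22.1), beside 18.3% of the exon bases. The closing stretch held 20.5% (19.2 to 21.9), 18.2% (17.1 to 19.3) and 18% (16.8 to 19.1), beside 21.9% of the bases. Within 200 nt of an annotated 5′ end the summits were 0.784, 0.914 and 1.01 times the number expected at the same GC content, and within 200 nt of a 3′ end, where polyadenylation takes place, 0.673 (0.620 to 0.730), 1.01 (0.935 to 1.08) and 0.997 (0.923 to 1.08). GC content falls along these transcripts, with means of 50.5% near the 5′ ends and 41.8% near the 3′ ends. Genes whose exons formed 1 block once all their transcripts were merged stood at 0.578, 1.06 and 1.06 on the same scale. They may include fragments of longer RNAs, and also genes with many transcripts, such as SNHG1 with 80.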
